A study of Mus musculus with 12 samples.

Results

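Transcripts of the NRF2 antioxidant response were followed in mouse bone marrow-derived macrophages, and 7 of the 10 genes read rose with each of 2 plasminogen preparations, where 16.0% of all genes tested rose with PLG+EACA+RNase and 14.9% with PLG+EACA. The transcript of NRF2 itself did not pass the test. The 10 genes are Nfe2l2, which encodes the transcription factor NRF2, its sensor and repressor gene Keap1, and Sqstm1, Hmox1, Srxn1, Prdx1, Txnrd1, Gclc, Gclm and Nqo1. They were taken by symbol from a deposited table of FPKM (fragments per kilobase of transcript and per unit of sequencing depth) that holds 32246 genes, and each symbol matched 1 row. All 10 passed the filter on low values that left 11165 genes for testing.

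The macrophages had been differentiated from bone marrow in 50 ng/mL GM-CSF over 7 days, and total RNA was sequenced in 3 groups of 4 libraries after a treatment of 24 h. The PLG+EACA+RNase group received plasminogen (PLG) exposed both to epsilon-aminocaproic acid (EACA), a lysine analogue that binds plasminogen, and to RNases. The PLG+EACA group received plasminogen exposed to EACA without the RNases, and the third group was left untreated. No group received EACA alone or plasminogen without EACA, and the share of plasminogen in any contrast with untreated cells cannot be told apart from that of EACA. RNases alone were given to no group either. In the contrast between the treatments, a change in the preparation thus cannot be told apart from RNases acting on the cells. The labels give no strain, sex or age, and it is not stated if replicates were separate animals or cultures. The p-values therefore measure only the spread between these libraries, which may be technical.

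NRF2 is a stress-activated transcription factor. In resting cells KEAP1 binds it in the cytoplasm and brings it to a ubiquitin ligase, so that NRF2 protein is made and degraded continuously. Electrophiles and oxidants modify cysteines of KEAP1, and the selective autophagy receptor p62, encoded by Sqstm1, can also bind KEAP1 and displace NRF2. Stabilised NRF2 pairs with small MAF proteins at antioxidant response elements and drives genes for glutathione synthesis, thioredoxin and peroxiredoxin recycling, quinone reduction and haem breakdown. Because this control acts largely on the protein, Nfe2l2 RNA is not a direct measure of NRF2 activity. In macrophages the pathway is known for limiting oxidative stress and for restraining inflammatory gene expression.

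Antioxidant response elements are short sequences, and some lie close to the start of these genes. RefSeq promoter windows (build GRCm38.p6, 250 bases before the start and 50 after it) were matched by symbol for 8 of the 10 genes, giving 10 windows; Hmox1 and Gclc were not matched. The windows were searched on both strands for the element core TGACNNNGC, for its G form TGAGNNNGC and for the AP-1 site TGANTCA, which can overlap a core. The 250 bases before the start are shown 5′ to 3′ on the gene's strand. They are given for 3 genes that were higher after treatment and held a core, and for Nqo1, a textbook NRF2 target whose level moved little. Capitals mark either form of the core on either strand.
Srxn1, chr2:152105274-152105523, plus strand: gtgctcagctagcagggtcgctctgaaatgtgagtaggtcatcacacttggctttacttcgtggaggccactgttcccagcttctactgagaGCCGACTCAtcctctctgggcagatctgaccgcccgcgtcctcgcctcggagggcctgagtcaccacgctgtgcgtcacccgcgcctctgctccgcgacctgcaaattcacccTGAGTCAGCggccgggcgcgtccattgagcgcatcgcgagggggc
Prdx1, chr4:116685349-116685598, plus strand: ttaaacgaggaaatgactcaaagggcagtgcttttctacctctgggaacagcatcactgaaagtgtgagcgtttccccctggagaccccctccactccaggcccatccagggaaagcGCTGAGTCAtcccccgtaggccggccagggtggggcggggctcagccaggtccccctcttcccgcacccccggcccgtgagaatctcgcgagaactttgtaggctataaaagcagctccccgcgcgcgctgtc
Txnrd1, chr10:82858956-82859205, plus strand: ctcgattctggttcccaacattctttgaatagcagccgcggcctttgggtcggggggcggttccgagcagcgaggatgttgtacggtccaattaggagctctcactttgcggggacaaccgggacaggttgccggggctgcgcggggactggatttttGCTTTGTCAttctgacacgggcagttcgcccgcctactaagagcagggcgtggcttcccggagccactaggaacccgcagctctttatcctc
Nqo1, chr8:107403206-107403455, minus strand: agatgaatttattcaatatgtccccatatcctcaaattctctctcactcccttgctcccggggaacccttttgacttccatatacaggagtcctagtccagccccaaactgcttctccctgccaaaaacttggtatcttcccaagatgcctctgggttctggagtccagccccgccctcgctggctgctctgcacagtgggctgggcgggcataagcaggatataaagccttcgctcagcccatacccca

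The Srxn1 window held 3 cores. TGAGTCAGC lay 45 to 37 bases before the start and overlapped the AP-1 site TGAGTCA, GCCGACTCA lay 158 to 150 bases before it, and GCTAGGTCA lay just after the start, outside the bases shown. Prdx1 held GCTGAGTCA 133 to 125 bases before the start, again overlapping an AP-1 site, and GCGTTCTCA after the start. Of the 3 Txnrd1 windows, 1 held a core, GCTTTGTCA, 92 to 84 bases before its start. Gclm held GCACCGTCA 134 to 126 bases before the start, and Nfe2l2 held TGACTCCGC 240 to 232 bases before its own. The windows of Nqo1, Keap1 and Sqstm1 held neither form. Yet Sqstm1 rose in both treatments and Keap1 with PLG+EACA, whereas Nfe2l2, which held a core, passed the test in neither comparison with untreated cells. Among all 32851 promoter windows of the same length, 12.4% held TGACNNNGC, 17.6% held TGAGNNNGC and 27.8% held either, while 7.81% held TGANTCA and 0.822% held either core overlapping an AP-1 site. A match is a description of these letters, not a shown binding site, and its absence says only that the letters are not in the window.

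The libraries held 12940888 to 22677041 counted reads, and the 10 genes together took 1.63% ± 0.058 of the counted reads with PLG+EACA+RNase and 1.56% ± 0.117 with PLG+EACA, against 0.848% ± 0.051 in untreated cells (mean ± SD, n = 4 each). The median log2 fold change of all 11165 genes tested was -0.20 for PLG+EACA+RNase and -0.26 for PLG+EACA against untreated cells, and 0.04 between the treatments. Scaling the libraries by the median of ratios brought these medians to 0.01, -0.01 and 0.00. For some genes, changes are therefore also given below relative to the median gene or with this scaling. All other fold changes are on the deposited scale and are not relative to the median gene. PLG+EACA replicate 4 stood apart, with a score of 30.4 on the second principal component against 7.26 to 10.3 in the other 3 libraries of its group. PLG+EACA+RNase replicate 4 was also the highest of its group on this component, at -3.54 against -27.2 to -12.6. The summed FPKM of 8 macrophage markers was 3974 to 4485 with PLG+EACA+RNase and 3974 to 5810 with PLG+EACA, against 5203 to 5801 in untreated cells. Most of this sum was Lyz2, which reached 5261, whereas no other marker of the list exceeded 332.6. The summed FPKM of 7 dendritic cell markers, a type that GM-CSF cultures also yield, was 519.0 to 570.3 with PLG+EACA+RNase and 422.0 to 556.8 with PLG+EACA, against 569.9 to 621.4 in untreated cells. Itgax was the highest of them, at up to 522.0, and Ccr7 reached 136.7, Zbtb46 5.75 and Clec9a 5.48. Dpp4, Flt3 and Xcr1 reached at most 1.31, 0.627 and 0.299. The 8 neutrophil and myeloid precursor markers summed to 23.3 to 56.5 with PLG+EACA+RNase and 24.6 to 67.8 with PLG+EACA, against 13.3 to 55.8 in untreated cells. The T and NK cell list, the B cell list and the 3 erythroid markers found each summed to at most 1.53 in any library, and the 5 stromal and endothelial markers to at most 21.2. No defining marker of these lists was at 0 in every library. The part of these differences in the results below was not tested, and in bulk RNA fewer cells of a type cannot be told apart from less RNA per cell.

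Against untreated cells, 8 of the 10 genes rose with PLG+EACA and none fell, where 14.9% of all genes tested rose and 53.4% fell, 68.3% in either direction (limma, Benjamini-Hochberg adjusted p below 0.05). With PLG+EACA+RNase 7 of the 10 rose and none fell, where 16.0% of all genes rose and 48.4% fell, 64.4% in all. With median-of-ratios scaling 9 of the 10 rose and none fell with PLG+EACA, where 27.3% of all genes rose and 26.4% fell, and 8 rose and none fell with PLG+EACA+RNase, where 28.4% of all genes rose and 26.4% fell. The 4 treated libraries did not overlap the 4 untreated ones for 8 of the 10 genes with PLG+EACA, all higher, where this held for 64.6% of all genes, and for 7 higher genes and 1 lower gene with PLG+EACA+RNase, where it held for 61.7%. The median log2 fold change of the 10 genes was 0.81 with PLG+EACA+RNase and 0.80 with PLG+EACA. Both comparisons use the same untreated libraries. The genes did not move by one common amount: with PLG+EACA+RNase the log2 fold changes ran from -0.26 for Nfe2l2 to 2.04 for Hmox1.

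**Figure D1:**
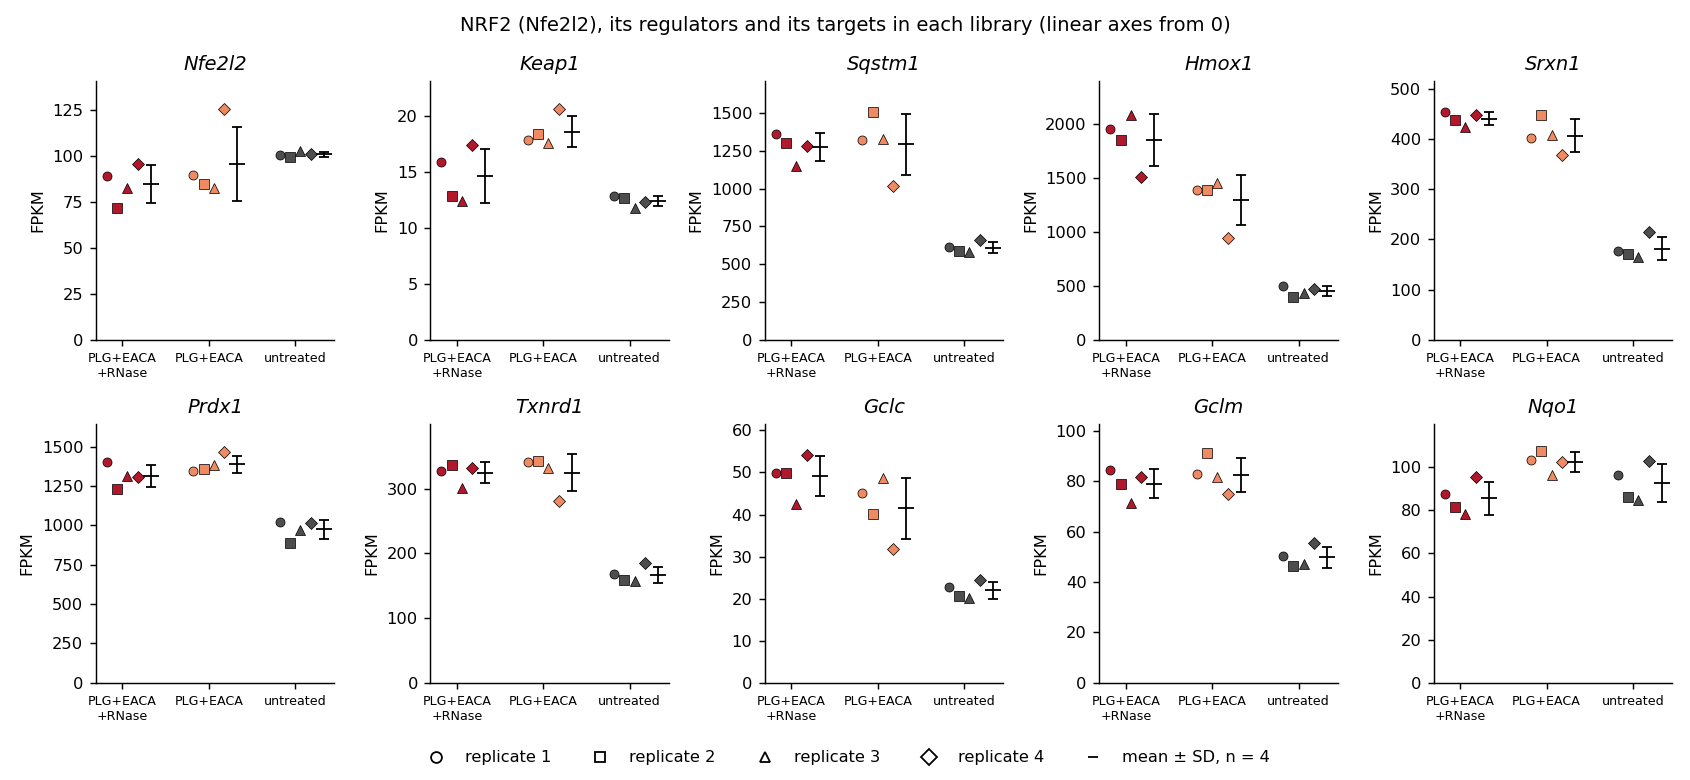
FPKM of the 10 genes in each of the 12 libraries, on linear axes from 0, with PLG+EACA+RNase left, PLG+EACA in the middle and untreated right; points are libraries by replicate number and bars are the mean ± SD (n = 4). The treated libraries of Hmox1, Sqstm1, Srxn1, Prdx1, Txnrd1, Gclc and Gclm all lie above the untreated ones, while those of Nfe2l2 and Nqo1 lie near them.

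Nfe2l2, the gene of NRF2, was not past the test in either comparison with untreated cells. The gene (ENSMUSG00000015839.6, chr2:75675513-75704641, GRCm38) had 88.7, 71.3, 82.5 and 95.7 FPKM with PLG+EACA+RNase, 89.3, 84.5, 82.5 and 125.2 with PLG+EACA, and 100.6, 99.0, 102.6 and 100.8 in untreated cells. All 4 PLG+EACA+RNase libraries were below the untreated ones, whereas PLG+EACA was below them in 3 libraries and above them in replicate 4. The log2 fold change was -0.26 ± 0.12 (SE) with PLG+EACA+RNase, adjusted p = 0.0793, and -0.10 ± 0.12 with PLG+EACA, adjusted p = 0.483 (limma). Relative to the median gene these are -0.06 and 0.16. Without PLG+EACA replicate 4 the PLG+EACA value was -0.24 with a limma adjusted p of 0.0227 on the deposited scale, and 0.01 with median-of-ratios scaling, so neither direction holds under both scalings. The PLG+EACA+RNase difference passed as a fall in 4 of 24 alternatives on the deposited scale, with limma adjusted p of 0.00947 without PLG+EACA replicate 4, 0.0181 with only the 2 groups compared, 0.0363 with the replicate number as a block and 0.0458 without PLG+EACA+RNase replicate 4, whereas with median-of-ratios scaling it was -0.03 (adjusted p = 0.886).

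Keap1 (ENSMUSG00000003308.15, chr9:21229730-21239361), the adaptor that holds NRF2 for degradation, was the least abundant of the 10 in every group. It had 15.9, 12.8, 12.3 and 17.4 FPKM with PLG+EACA+RNase, 17.8, 18.4, 17.6 and 20.6 with PLG+EACA, and 12.9, 12.6, 11.8 and 12.3 in untreated cells. Every PLG+EACA library lay above every untreated one, while the PLG+EACA+RNase libraries overlapped the untreated range. Keap1 rose 1.48-fold with PLG+EACA (log2 0.56 ± 0.10, adjusted p = 0.00026). With PLG+EACA+RNase the log2 difference was 0.21 ± 0.10 with an adjusted p of 0.0698, and 0.44 with an adjusted p of 0.0051 after median-of-ratios scaling (limma). Keap1 shares 510 of its 4693 exon bases with Gm16754 on the opposite strand, which averaged 0.61 FPKM, and the sources used here do not state whether counting used the strand.

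Sqstm1 (ENSMUSG00000015837.15, chr11:50199366-50210827) encodes p62, which links ubiquitinated cargo to autophagosomes and is itself an NRF2 target. It had 1363, 1306, 1148 and 1286 FPKM with PLG+EACA+RNase, 1321, 1511, 1327 and 1021 with PLG+EACA, and 613, 587, 579.8 and 658 in untreated cells. Neither treatment overlapped the untreated group, and the treatments overlapped each other. Sqstm1 rose 2.09-fold with PLG+EACA+RNase (log2 1.06 ± 0.10, adjusted p = 3.64e-06) and 2.11-fold with PLG+EACA (log2 1.07 ± 0.10, adjusted p = 2.94e-06; limma). Its other-strand neighbour Mrnip shares 580 of 3356 exon bases and averaged 1.9 FPKM.

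Hmox1 (ENSMUSG00000005413.8, chr8:75093621-75100589), the inducible haem oxygenase that opens haem to biliverdin, carbon monoxide and iron, showed the widest change. It had 1959, 1858, 2086 and 1515 FPKM with PLG+EACA+RNase, 1387, 1394, 1459.7 and 946 with PLG+EACA, and 502, 397, 436 and 466 in untreated cells. The 3 groups did not overlap, with PLG+EACA+RNase highest and replicate 4 the lowest library of both treatments. Hmox1 rose 4.1-fold with PLG+EACA+RNase (log2 2.04 ± 0.14, adjusted p = 3.72e-07) and 2.85-fold with PLG+EACA (log2 1.51 ± 0.14, adjusted p = 2.49e-06; limma). It stood 78th of 11165 genes in order of log2 fold change with PLG+EACA+RNase and 214th with PLG+EACA. Its share of all counted reads averaged 0.325% with PLG+EACA+RNase and 0.227% with PLG+EACA, against 0.0788% in untreated cells.

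Srxn1 (ENSMUSG00000032802.8, chr2:152105516-152111376) encodes sulfiredoxin, which returns overoxidised peroxiredoxins to their active form. It had 454, 439.6, 424 and 449 FPKM with PLG+EACA+RNase, 404, 449, 408 and 369.6 with PLG+EACA, and 178, 171, 164 and 214 in untreated cells. All 8 treated libraries were above all 4 untreated ones. The log2 fold change was 1.28 ± 0.08 with PLG+EACA+RNase (adjusted p = 2.11e-07) and 1.17 ± 0.08 with PLG+EACA (adjusted p = 3.45e-07; limma).

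Prdx1 (ENSMUSG00000028691.12, chr4:116685544-116700822), the abundant cytosolic peroxiredoxin on which sulfiredoxin acts, rose less. It had 1399, 1230.2, 1316 and 1307 FPKM with PLG+EACA+RNase, 1344, 1359, 1381 and 1464 with PLG+EACA, and 1022, 890.4, 972 and 1013 in untreated cells. No treated library fell within the untreated range. Prdx1 rose 1.35-fold with PLG+EACA+RNase (log2 0.43 ± 0.06, adjusted p = 3.37e-05) and 1.42-fold with PLG+EACA (log2 0.51 ± 0.06, adjusted p = 8.44e-06; limma). Its replicates were close, with a coefficient of variation of 5.27%, 3.85% and 6.17% in the PLG+EACA+RNase, PLG+EACA and untreated groups.

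Txnrd1 (ENSMUSG00000020250.10, chr10:82833951-82897712) encodes the cytosolic thioredoxin reductase, a selenoenzyme that passes electrons from NADPH to thioredoxin. It had 328, 337, 301 and 332 FPKM with PLG+EACA+RNase, 342, 342, 333 and 282 with PLG+EACA, and 168, 159, 157 and 185 in untreated cells. The treatments covered nearly the same range, well above untreated cells. Txnrd1 rose 1.94-fold with PLG+EACA+RNase (log2 0.96 ± 0.07, adjusted p = 6.78e-07) and as much with PLG+EACA (log2 0.95 ± 0.07, adjusted p = 6.24e-07; limma).

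Gclc and Gclm encode the catalytic and modifier subunits of glutamate-cysteine ligase, the rate-limiting enzyme of glutathione synthesis. Gclc (ENSMUSG00000032350.9, chr9:77754535-77794485) had 49.9, 49.9, 42.6 and 54.2 FPKM with PLG+EACA+RNase, 45.1, 40.2, 48.6 and 31.9 with PLG+EACA, and 22.9, 20.5, 20.3 and 24.5 in untreated cells. Gclm (ENSMUSG00000028124.15, chr3:122245557-122270732) had 84.5, 78.8, 71.2 and 81.5 FPKM with PLG+EACA+RNase, 82.8, 91.0, 81.5 and 74.7 with PLG+EACA, and 50.5, 46.4, 46.9 and 55.5 in untreated cells. Both subunits were above the untreated range in every treated library, with Gclc most spread in the PLG+EACA group. Gclc rose 2.2-fold with PLG+EACA+RNase (log2 1.14 ± 0.12, adjusted p = 7.28e-06) and 1.84-fold with PLG+EACA (log2 0.88 ± 0.12, adjusted p = 4.43e-05; limma). Gclm rose 1.58-fold with PLG+EACA+RNase (log2 0.66 ± 0.08, adjusted p = 1.35e-05) and 1.65-fold with PLG+EACA (log2 0.72 ± 0.08, adjusted p = 6.33e-06; limma). Gclm shares 296 of its 6291 exon bases with Gm17494 on the opposite strand, at 0.359 FPKM, and 244 with Gm6061 on its own strand.

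Nqo1 (ENSMUSG00000003849.8, chr8:107388225-107403206) encodes the NADPH-dependent quinone reductase often used as a readout of NRF2. It had 87.5, 81.6, 78.1 and 95.5 FPKM with PLG+EACA+RNase, 103.5, 107.6, 96.2 and 102.4 with PLG+EACA, and 96.4, 86.1, 85.0 and 103.1 in untreated cells. Each treatment overlapped the untreated range. The log2 difference from untreated cells was -0.11 with PLG+EACA+RNase (95% interval -0.28 to 0.05, adjusted p = 0.211) and 0.15 with PLG+EACA (95% interval -0.02 to 0.31, adjusted p = 0.099; limma). With median-of-ratios scaling these were 0.12 (adjusted p = 0.244) and 0.42 (adjusted p = 0.00107), so the PLG+EACA difference passed the test relative to the median gene and the PLG+EACA+RNase difference changed sign.

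**Figure D2:**
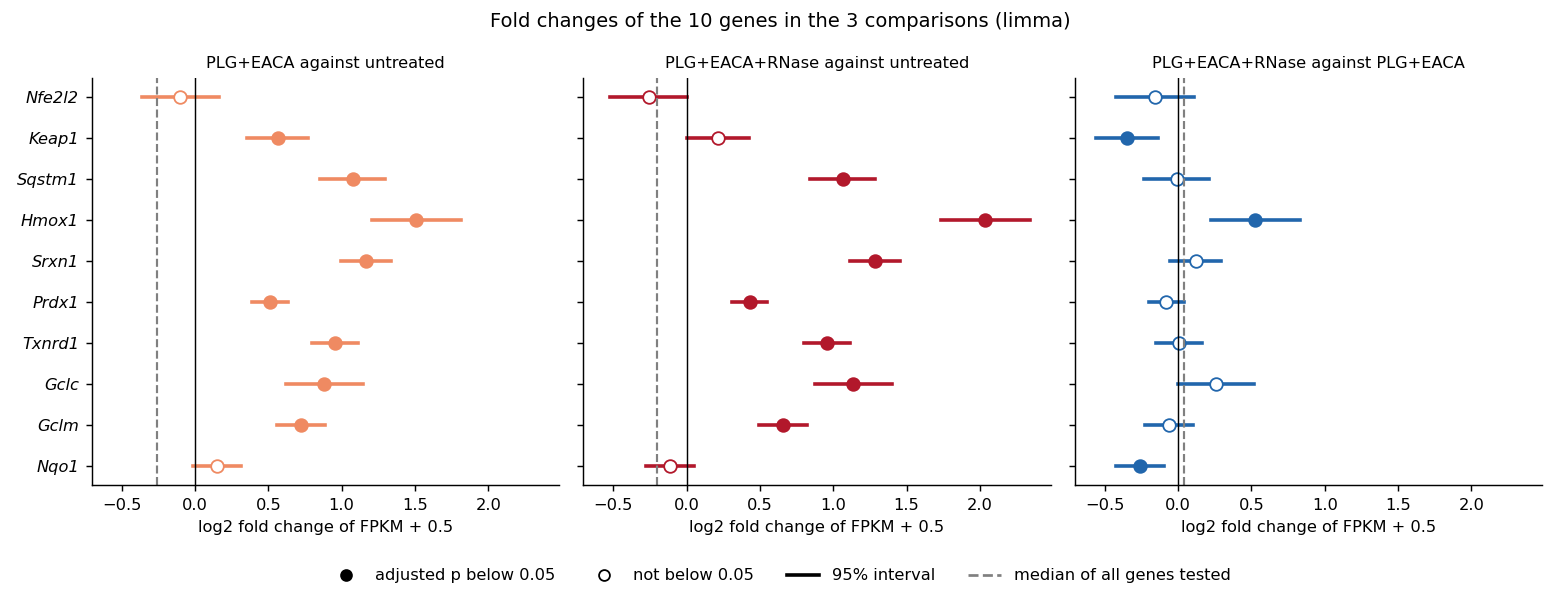
Log2 fold changes of FPKM + 0.5 for the 10 genes in the 3 comparisons, with 95% intervals from limma; filled points have an adjusted p below 0.05, and the dashed line is the median of all genes tested. Hmox1 lies farthest to the right in each panel, at 1.51, 2.04 and 0.53, and Nfe2l2 lies left of 0 in all 3 on this scale, though at 0.18 for PLG+EACA against untreated with median-of-ratios scaling.

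**Figure D3:**
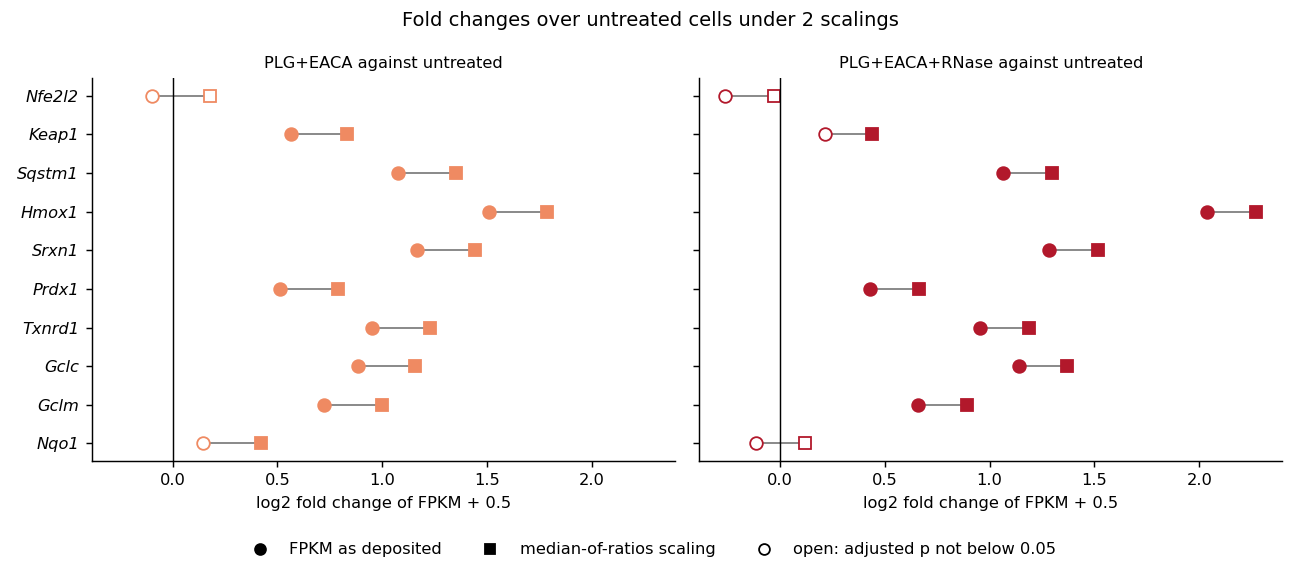
Log2 fold changes over untreated cells for the 10 genes, from FPKM as deposited (circles) and with median-of-ratios scaling (squares); open symbols have an adjusted p not below 0.05. Every gene shifts right by about the same step, which takes Nqo1 with PLG+EACA to 0.42 and Keap1 with PLG+EACA+RNase to 0.44, both then past the threshold.

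PLG+EACA+RNase was set against PLG+EACA to read the differences that go with the RNases. Without a group given RNases alone, these cannot be assigned to a change in the preparation. Of the 10 genes, 1 rose and 2 fell, where 12.1% of all genes rose and 8.73% fell, 20.8% in either direction. With median-of-ratios scaling the counts were again 1 and 2, where 10.6% of all genes rose and 11.4% fell. Hmox1 rose 1.44-fold (log2 0.53 ± 0.14, adjusted p = 0.0228), Keap1 fell 1.27-fold (log2 -0.35 ± 0.10, adjusted p = 0.0266) and Nqo1 fell 1.2-fold (log2 -0.26 ± 0.07, adjusted p = 0.0318; limma). The treatments did not overlap for these 3 of the 10 genes and overlapped for the other 7, where 18.1% of all genes did not overlap. The calls come from the same libraries, so the lack of overlap is not separate support for them. The highest PLG+EACA+RNase library and the lowest PLG+EACA library were 17.4 and 17.6 FPKM for Keap1, and 95.5 and 96.2 for Nqo1. The 3 calls were close to the threshold, and adjusted p rose to 0.0703 for Hmox1, 0.0815 for Keap1 and 0.0945 for Nqo1 under the alternatives tried. Without PLG+EACA replicate 4, Hmox1 remained higher by 0.38, whereas Keap1 at -0.30 (adjusted p = 0.0699) and Nqo1 at -0.26 (adjusted p = 0.0637) no longer passed.

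The other 7 genes did not pass the test between the treatments, which does not show that they are alike. The difference was 0.26 for Gclc (95% interval 0.00 to 0.52, limma adjusted p = 0.145) and 0.12 for Srxn1 (-0.06 to 0.29). It was -0.06 for Gclm (-0.23 to 0.10), -0.08 for Prdx1 (-0.20 to 0.04) and -0.16 for Nfe2l2 (-0.42 to 0.11). Sqstm1 and Txnrd1 differed by -0.01 (-0.23 to 0.21) and 0.00 (-0.15 to 0.16), signs that turned under other settings.

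Ratios of genes within a library do not depend on how libraries are scaled, and 5 functional pairs were compared. The two-sided exact permutation test with 4 libraries a group can give no p below 0.0286. Benjamini-Hochberg adjustment over the 15 tests made took that p to 0.039. This adjusted value is not a fixed limit, since it depends on how many of the tests reached the smallest p. The NRF2 to repressor ratio, Nfe2l2/Keap1, was 5.82 with PLG+EACA+RNase and 5.07 with PLG+EACA, against 8.13 in untreated cells (geometric means of FPKM ratios). Its range was 5.51 to 6.68 with PLG+EACA+RNase and 4.603 to 6.085 with PLG+EACA, below 7.83 to 8.71 in untreated cells, and both differences reached the smallest p. The treatments overlapped each other (exact permutation p = 0.114, adjusted 0.122).

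The sulfiredoxin to peroxiredoxin ratio, Srxn1/Prdx1, was 0.337 with PLG+EACA+RNase and 0.293 with PLG+EACA, against 0.186 in untreated cells, and both treatments lay above the untreated range of 0.169 to 0.212 (adjusted exact permutation p = 0.039 each). The reductase to substrate ratio, Txnrd1/Txn1, was 1.43 with PLG+EACA+RNase and 1.25 with PLG+EACA, against 0.894 in untreated cells. All 3 groups were separate for it, with 1.37 to 1.54 in PLG+EACA+RNase, 1.02 to 1.35 in PLG+EACA and 0.863 to 0.960 in untreated libraries, each pair at an adjusted exact permutation p of 0.039. In the PLG+EACA group, replicate 4 was at 1.02 and the rest at 1.3 to 1.35. The log2 difference between the treatments was 0.20, and it ran from 0.105 to 0.239 over left-out libraries. Txnrd1 itself was level between the treatments, and it was Txn1, thioredoxin, that was lower with PLG+EACA+RNase, at 227 ± 12.3 FPKM against 260.1 ± 12.4 with PLG+EACA and 187 ± 7.42 in untreated cells (SD, n = 4).

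The inducible to constitutive haem oxygenase ratio, Hmox1/Hmox2, was 128.5 with PLG+EACA+RNase and 76.1 with PLG+EACA, against 27.5 in untreated cells. Its 3 groups were separate as well, with 93.2 to 150.0 in PLG+EACA+RNase, 51.4 to 89.3 in PLG+EACA and 23.9 to 32.4 in untreated libraries, each pair at an adjusted exact permutation p of 0.039. Hmox2 averaged 14.4 ± 1.26 FPKM with PLG+EACA+RNase, 16.8 ± 1.17 with PLG+EACA and 16.3 ± 0.641 in untreated cells (SD, n = 4). The subunit ratio Gclm/Gclc was 1.61 with PLG+EACA+RNase, 2.01 with PLG+EACA and 2.26 in untreated cells. It was lower with PLG+EACA+RNase than in untreated cells (1.504 to 1.692 against 2.207 to 2.316, adjusted exact permutation p = 0.039). PLG+EACA overlapped untreated cells, at 1.68 to 2.34 (exact permutation p = 0.4), and it overlapped PLG+EACA+RNase by little (exact permutation p = 0.0571, adjusted 0.0714).

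**Figure D4:**
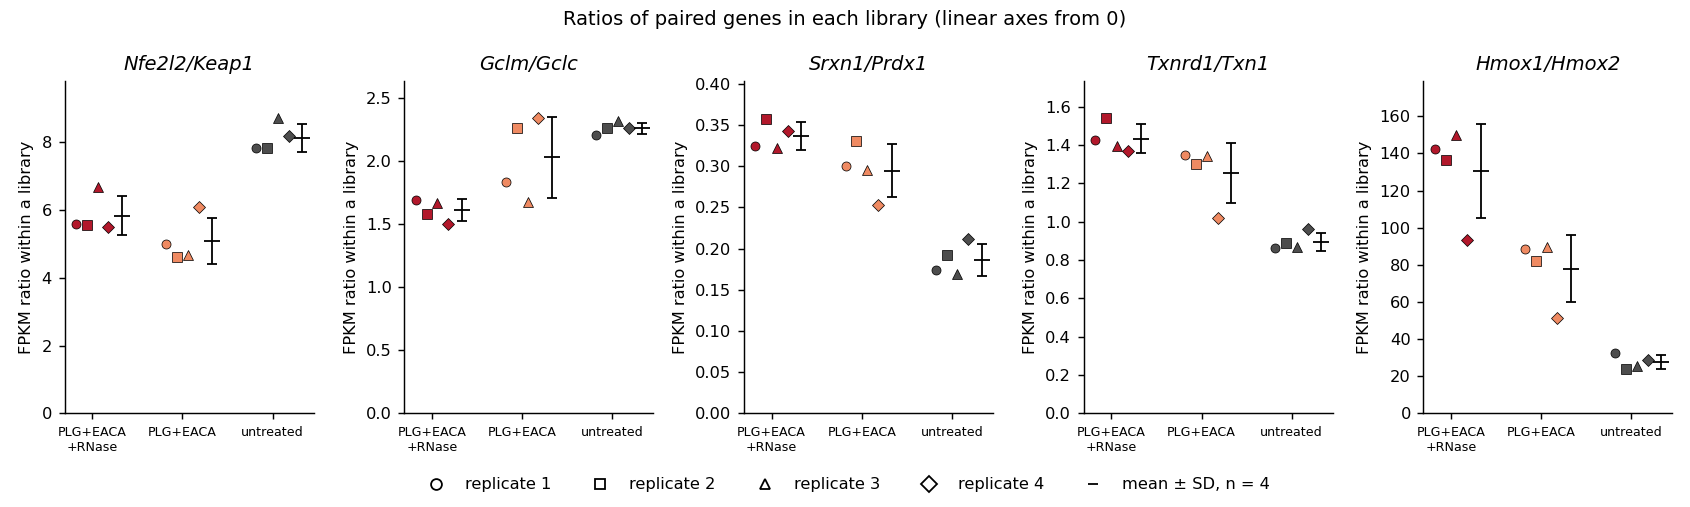
FPKM ratios of 5 gene pairs in each library, on linear axes from 0, with PLG+EACA+RNase left, PLG+EACA in the middle and untreated right; bars are the mean ± SD (n = 4). Nfe2l2/Keap1 is highest in untreated cells, at 7.83 to 8.71, while Srxn1/Prdx1, Txnrd1/Txn1 and Hmox1/Hmox2 are lowest there.

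The order of levels changed at the top of the list, where FPKM is per kilobase of the deposited gene length. With PLG+EACA+RNase, Hmox1 led at 1855 ± 245 FPKM (SD, n = 4), ahead of Prdx1 and Sqstm1, whose ranges overlapped. With PLG+EACA the ranges of Prdx1, Hmox1 and Sqstm1 all overlapped, at 1387 ± 53.5, 1296 ± 236 and 1295 ± 203. In untreated cells Prdx1 led at 974.5 ± 60.1, followed without overlap by Sqstm1 at 609.5 ± 35.5 and Hmox1 at 450.1 ± 44.7. Srxn1 stood above Txnrd1 in all 12 libraries, although their untreated ranges overlapped. Nqo1, Nfe2l2 and Gclm formed a middle group whose neighbours overlapped in both treatments, whereas in untreated cells Gclm at 49.8 ± 4.19 lay below Nfe2l2 and Nqo1. Gclc and Keap1 were the lowest in every group, without overlap. Nfe2l2 varied most between replicates with PLG+EACA, with a coefficient of variation of 21%, and least in untreated cells, at 1.45%.

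Beyond the 10 genes, 84 others of the pathway were read in 8 lists, of which 81 were tested; Gsta4, Ggct and Ces2g were too low. In each comparison with untreated cells 24 of the 81 rose and 34 fell, where 16.0% of all genes rose and 48.4% fell with PLG+EACA+RNase, and 14.9% rose and 53.4% fell with PLG+EACA. Under median-of-ratios scaling the counts were 39 higher and 13 lower with PLG+EACA+RNase, where 28.4% of all genes were higher and 26.4% lower. They were 41 higher and 13 lower with PLG+EACA, where 27.3% of all genes were higher and 26.4% lower. The counts thus moved with the scaling. Under both scalings the share higher was above that of all genes, and the share lower was below it. Whether the lists differ from all genes was not tested. The counts of each list below are to be read beside the shares of all genes under the same scaling. Between the treatments 9 were higher and 6 lower with PLG+EACA+RNase, where 12.1% of all genes were higher and 8.73% lower, and that scaling gave 6 higher and 10 lower. These counts were unstable: 2 were higher and 1 lower with only the 2 groups compared or without PLG+EACA+RNase replicate 3, and over all left-out libraries 2 to 11 were higher and 1 to 7 lower. The count higher was 5 or less without PLG+EACA+RNase replicate 1, 2 or 3, PLG+EACA replicate 1, or untreated replicate 1 or 2, and the count lower was 1 without PLG+EACA+RNase replicate 2 or 3. Of the genes named here for such a difference, Maff and Txnip passed in all 24 alternatives, Cbr1 in 21 and Txn1 in 19.

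**Figure D5:**
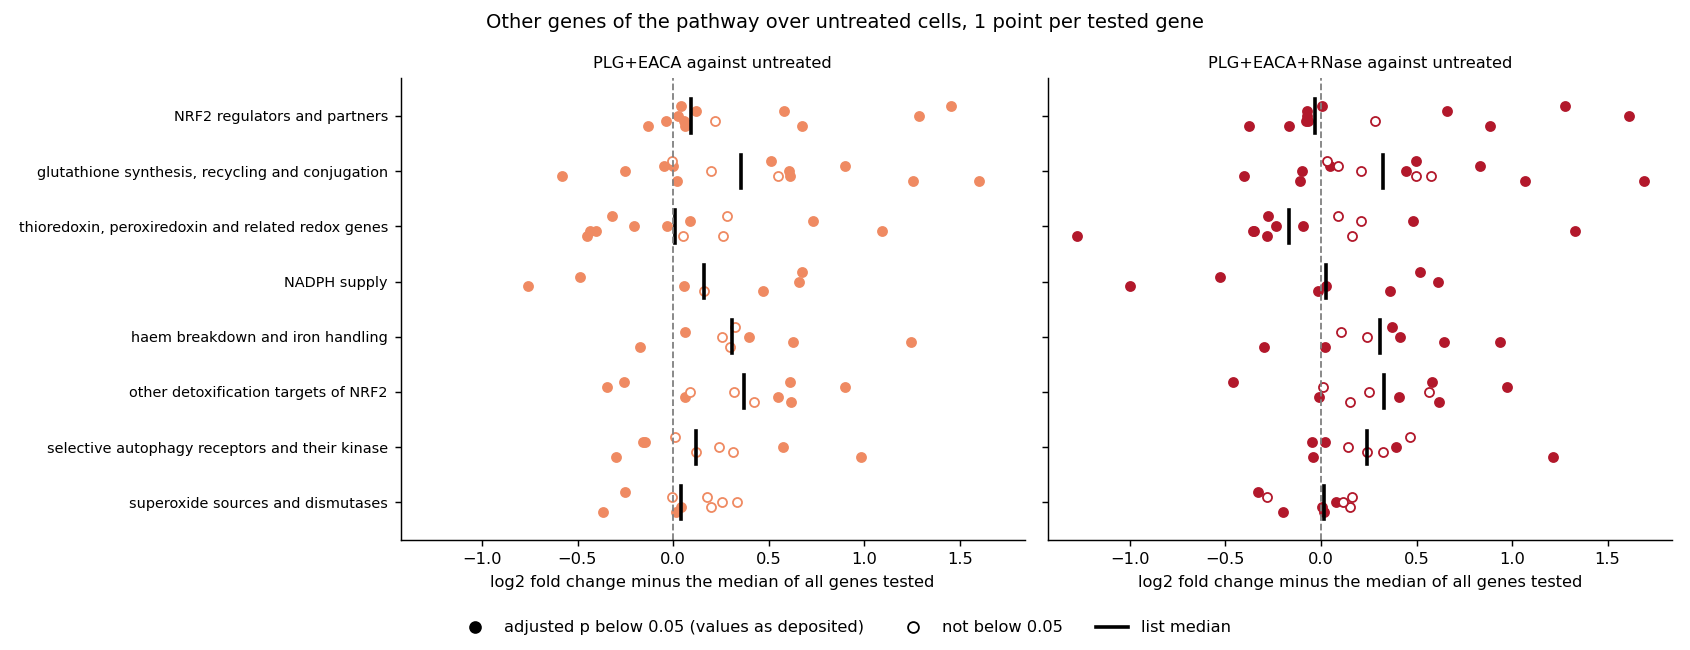
Log2 fold changes over untreated cells, less the median of all genes tested, of the 81 tested genes in 8 lists; each point is a gene, filled where the adjusted p was below 0.05 on the deposited values, and bars are list medians. The list medians lie between 0.01 and 0.37 for PLG+EACA and between -0.17 and 0.33 for PLG+EACA+RNase, with single genes spread widely around them.

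Among 12 regulators and partners of NRF2, 4 rose and 7 fell in each comparison with untreated cells, but under median-of-ratios scaling 5 were higher and 2 lower with PLG+EACA+RNase, and 6 higher and none lower with PLG+EACA. On the deposited scale the list had a median log2 fold change of -0.23 for PLG+EACA+RNase, beside -0.20 for all genes, and -0.16 for PLG+EACA, beside -0.26 for all genes. The risers include the genes of small MAF proteins, which pair with NRF2 or with its competitor BACH1. Mafk rose to 32.0 ± 2.42 FPKM with PLG+EACA+RNase and 34.9 ± 1.77 with PLG+EACA, against 14.9 ± 0.54 in untreated cells (SD, n = 4). Maff rose to 49.4 ± 2.53 with PLG+EACA+RNase and 38.1 ± 5.08 with PLG+EACA, against 18.3 ± 0.719 in untreated cells, and it was also higher with PLG+EACA+RNase than with PLG+EACA (log2 0.38, limma adjusted p = 0.0114). Bach1, the repressor of Hmox1, rose 1.6-fold with PLG+EACA+RNase and 1.34-fold with PLG+EACA. Nfe2l1, an NRF2 relative that controls proteasome genes, fell 1.49-fold with PLG+EACA+RNase and 1.31-fold with PLG+EACA; after median-of-ratios scaling the PLG+EACA fall was 0.11 on the log2 scale and did not pass (limma adjusted p = 0.0861).

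Of 14 tested glutathione genes, 5 rose and 4 fell with PLG+EACA+RNase, with a list median of 0.12, and 6 rose and 5 fell with PLG+EACA, with a median of 0.10. Once rescaled, 8 were higher and 1 lower with PLG+EACA+RNase, and 8 higher and 2 lower with PLG+EACA. Gss, glutathione synthetase, which completes the step after Gclc and Gclm, rose to 24.5 ± 2.72 FPKM with PLG+EACA+RNase and 22.1 ± 1.29 with PLG+EACA, against 8.44 ± 1.2 in untreated cells. Slc7a11, the cystine importer, rose 1.54-fold with PLG+EACA+RNase and 1.56-fold with PLG+EACA. Abcc1, which encodes an exporter of glutathione conjugates, rose 1.82-fold with PLG+EACA+RNase and 2.0-fold with PLG+EACA. Gpx1, glutathione peroxidase, fell 1.24-fold with PLG+EACA+RNase and 1.42-fold with PLG+EACA, and the PLG+EACA+RNase fall did not pass with median-of-ratios scaling (limma adjusted p = 0.435).

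Of 12 other thioredoxin and peroxiredoxin genes, 2 rose and 7 fell in each comparison with untreated cells (list medians -0.37 with PLG+EACA+RNase and -0.25 with PLG+EACA). After median-of-ratios scaling 4 were higher and 5 lower with PLG+EACA+RNase, and 4 higher and 4 lower with PLG+EACA. Prdx6, a peroxiredoxin that also has phospholipase activity, rose to 91.3 ± 4.87 FPKM with PLG+EACA+RNase and 74.6 ± 4.48 with PLG+EACA, against 41.5 ± 0.876 in untreated cells. Txnip, which binds and inhibits thioredoxin, fell to 28.5 ± 5.12 with PLG+EACA+RNase and 48.7 ± 5.17 with PLG+EACA, against 79.4 ± 1.93 in untreated cells. It was lower with PLG+EACA+RNase than with PLG+EACA by 0.77 on the log2 scale (limma adjusted p = 0.0032). Txn2, mitochondrial thioredoxin, fell 1.4-fold with PLG+EACA+RNase and 1.49-fold with PLG+EACA. Msrb1, a methionine sulfoxide reductase, fell 1.47-fold with PLG+EACA+RNase and 1.58-fold with PLG+EACA, and both genes also passed as lower with median-of-ratios scaling.

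The 7 genes of NADPH supply split, with 3 higher and 4 lower with PLG+EACA+RNase and 3 higher and 3 lower with PLG+EACA, or 3 higher and 2 lower in each after median-of-ratios scaling. Pgd, of the pentose phosphate pathway, rose 1.25-fold with PLG+EACA+RNase and 1.34-fold with PLG+EACA, and Me1, malic enzyme, rose 1.33-fold with PLG+EACA+RNase and 1.32-fold with PLG+EACA. Idh1, cytosolic isocitrate dehydrogenase, fell to 16.9 ± 1.22 FPKM with PLG+EACA+RNase and 19.4 ± 1.51 with PLG+EACA, against 39.8 ± 4.77 in untreated cells. Mthfd1, of folate metabolism, fell 1.66-fold with PLG+EACA+RNase and 1.67-fold with PLG+EACA.

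Among 8 genes of haem breakdown and iron handling, 4 rose and 2 fell with PLG+EACA+RNase and 3 rose and 2 fell with PLG+EACA. The rescaled counts were 5 higher and 1 lower with PLG+EACA+RNase, and 6 higher and none lower with PLG+EACA. Slc40a1, the iron exporter ferroportin, rose to 8.5 ± 0.7 FPKM with PLG+EACA+RNase and 10.4 ± 2.57 with PLG+EACA, against 4.91 ± 0.505 in untreated cells. Blvrb, a biliverdin reductase, rose 1.36-fold with PLG+EACA+RNase and 1.29-fold with PLG+EACA. Fech, which makes haem, rose 1.16-fold with PLG+EACA+RNase and 1.1-fold with PLG+EACA. Blvra, the other biliverdin reductase, fell 1.42-fold with PLG+EACA+RNase and 1.34-fold with PLG+EACA, and the PLG+EACA fall did not pass with median-of-ratios scaling (limma adjusted p = 0.193).

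Of 10 other tested detoxification targets, 4 rose and 2 fell with PLG+EACA+RNase, and 4 rose and 3 fell with PLG+EACA. Rescaled by median of ratios, 6 were higher and 1 lower with PLG+EACA+RNase, and 6 higher and 2 lower with PLG+EACA. Ptgr1, which reduces lipid aldehydes and prostaglandins, rose 1.71-fold with PLG+EACA+RNase and 1.56-fold with PLG+EACA, and the esterase gene Esd rose 1.15-fold with PLG+EACA+RNase and 1.23-fold with PLG+EACA. Ugdh, which supplies glucuronic acid for conjugation, fell 1.58-fold with PLG+EACA+RNase and 1.43-fold with PLG+EACA. Cbr1, a carbonyl reductase, differed by -0.19 on the log2 scale with PLG+EACA+RNase (limma adjusted p = 0.0994) and fell 1.52-fold with PLG+EACA. It was higher with PLG+EACA+RNase than with PLG+EACA by 0.41 on the log2 scale (limma adjusted p = 0.0162).

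Sqstm1 was set beside 9 other genes of selective autophagy, among them cargo receptors, proteins of the autophagosome membrane and the kinase gene Tbk1. Of the 9, 2 rose and 3 fell in each comparison with untreated cells, but 5 were higher and none lower with PLG+EACA+RNase, and 4 higher and 1 lower with PLG+EACA, under median-of-ratios scaling. Optn, optineurin, rose to 15.3 ± 1.26 FPKM with PLG+EACA+RNase and 12.6 ± 2.56 with PLG+EACA, against 7.29 ± 0.183 in untreated cells, and Tbk1, a kinase that acts on it, rose 1.14-fold with PLG+EACA+RNase and 1.25-fold with PLG+EACA. Calcoco1 fell 1.18-fold with PLG+EACA+RNase and 1.47-fold with PLG+EACA, and the PLG+EACA+RNase fall did not pass with median-of-ratios scaling (limma adjusted p = 0.828). Map1lc3b, of the autophagosome membrane, fell 1.13-fold with PLG+EACA+RNase and 1.32-fold with PLG+EACA, but with median-of-ratios scaling it was at 0.05 and -0.13 on the log2 scale in these 2 comparisons and passed in neither.

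On the deposited scale none of 9 genes for superoxide sources and dismutases rose. With PLG+EACA+RNase 5 of them fell, where 16.0% of all genes rose and 48.4% fell. With PLG+EACA 4 of them fell, where 14.9% of all genes rose and 53.4% fell. Whether the list differs from all genes was not tested. Once rescaled by median of ratios, 3 were higher and 1 lower with PLG+EACA+RNase, and 4 higher and 2 lower with PLG+EACA. Ncf4, a subunit gene of the phagocyte NADPH oxidase, fell 1.44-fold with PLG+EACA+RNase and 1.42-fold with PLG+EACA. Rac2, a GTPase of the same complex, fell 1.32-fold with PLG+EACA+RNase and 1.54-fold with PLG+EACA, and the PLG+EACA+RNase fall did not pass with median-of-ratios scaling (limma adjusted p = 0.114). Cyba, another oxidase subunit gene, fell 1.14-fold with PLG+EACA+RNase and 1.18-fold with PLG+EACA on the deposited scale, but with median-of-ratios scaling it was at 0.05 with PLG+EACA+RNase and 0.04 with PLG+EACA on the log2 scale. Sod1, cytosolic superoxide dismutase, fell 1.16-fold with PLG+EACA, where it was at 0.06 on the log2 scale after that scaling. With PLG+EACA+RNase, Sod1 was at -0.05 as deposited (limma adjusted p = 0.393). After median-of-ratios scaling it passed there as higher, at 0.18 (limma adjusted p = 0.00263).

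Likeness of profiles was measured as the root-mean-square difference of centred log2(FPKM + 0.5) over the 12 libraries, which share depth and scaling. The 5 genes closest to Nfe2l2 were Tmem50b at 0.065, then Uba6, Unc93b1, Cd164 and Bloc1s6 at 0.080 to 0.083, where the spread of Nfe2l2 itself was 0.197. Those closest to the mean profile of the 10 genes were Pi4k2b and Panx1 at 0.065, Psmd11, a proteasome subunit gene, at 0.069, Lilr4b at 0.074 and Atp13a3 at 0.076, where the spread of the mean profile was 0.356. Pi4k2b averaged 13.4 FPKM with PLG+EACA+RNase and 13.5 with PLG+EACA, against 7.7 in untreated cells.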

How the data were processed

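Total RNA was sequenced from 12 libraries in 3 groups. The authors deposited FPKM values, 1 column per library, per the file headers. The values are scaled to the counted reads of each library and carry no further scaling between libraries. Per the submitters' processing notes, the build was GRCm38.p6 and the tools, in no stated order, were STAR 2.7.11a, featureCounts 2.0.6, cutadapt 4.5, DESeq2 1.40.2 and FastQC 0.12.1. Whether counting used the strand is not given in the sources used here. Depth was worked out from the smallest FPKM steps: 99.996 to 100% of values came within 0.1 of a whole number of reads. Coordinates are those of the deposited table, identical in GENCODE M21 for all 10 genes.

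Genes with FPKM of at least 1 in at least 4 libraries were tested on log2(FPKM + 0.5), a scale that understates changes of low genes, in 1 limma 3.58.1 fit of all 12 libraries (R 4.3.3; eBayes with trend), two-sided, with Benjamini-Hochberg adjustment over 11165 genes within each comparison and a threshold of 0.05. The steps were tested on simulated data. Ratios were compared by exact permutation. The 10 genes, the lists and the tests were chosen with earlier results of these data known. Of each list, the tested genes with the smallest p in either comparison with untreated cells, up to 4, are named; like profiles are the 5 nearest genes with named symbols. The G form of the element core was added after a first search. Alternatives were the pseudocount (0.1 and 1), the filter (FPKM 5, or none), median-of-ratios scaling, rescaling without Gm26917 (10.3 to 15.2% of reads), robust eBayes, only the 2 groups compared, the replicate number as a block, voom on the recovered reads, and leaving out each library. Hba-a1, Hba-a2 and Hbb-bs were not analysed here.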

Additional observations from a re-analysis of the deposited data

Results flagged for a closer look

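Within groups of 4 libraries, 6 of 45 sets of values had a library whose gap to its neighbour exceeded Dixon's 95% critical value as a share of the group's range; chance marks about 1 set in 20. Of the 6, 5 concern PLG+EACA replicate 4, the library that also stood apart over all genes. Nfe2l2 was highest there at 125.157 FPKM (gap 0.841 of the range). Hmox1 was lowest there at 945.754 FPKM (0.858) and Txnrd1 was lowest there at 281.843 FPKM (0.84). The log2 ratio of Txnrd1 to Txn1 was lowest there at 0.03043 (0.867), and that of Hmox1 to Hmox2 at 5.685 (0.848). In the PLG+EACA+RNase group, the log2 ratio of Nfe2l2 to Keap1 was highest in replicate 3, at 2.74 (0.919).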

How the results depend on the processing

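Hmox1, Srxn1, Sqstm1, Txnrd1, Gclc, Gclm and Prdx1 against untreated cells, in both treatments, and Keap1 with PLG+EACA passed the test in the same direction under all 24 alternatives, which include leaving out each of the 12 libraries. Between the treatments, the call passed in 19 of 24 for Hmox1, 18 for Keap1 and 15 for Nqo1. The count of the 10 genes higher with PLG+EACA+RNase than with PLG+EACA was 0 without a filter and with only the 2 groups compared, and ran from 0 to 1 over left-out libraries. The count lower was 0 without a filter, with only the 2 groups and with median-of-ratios scaling less PLG+EACA replicate 4, an alternative added after seeing the data, and ran from 0 to 2 over left-out libraries. The count lower than untreated was 1 with PLG+EACA+RNase for only the 2 groups and for the replicate block, and ran from 0 to 1 over left-out libraries in both treatments; the gene was Nfe2l2. Values whose sign turned were near 0: with median-of-ratios scaling, Nfe2l2 with PLG+EACA was at 0.18 (0.0128 less replicate 4, 0.18 with the block), Nqo1 with PLG+EACA+RNase at 0.12 (0.12 and 0.12), and Txnrd1 between the treatments at -0.041 (-0.0801 and -0.041). Over left-out libraries Txnrd1 ran from -0.063 to 0.0387 and Sqstm1 from -0.12 to 0.0686 between the treatments, and Sqstm1 was at 0.0141 without Gm26917. The cause was not tested.

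Counts over all genes moved by more than 1.5 times in places. With median-of-ratios scaling, 3169 genes rose and 2953 fell with PLG+EACA+RNase, against 1783 and 5408 as deposited, and 3050 and 2942 with PLG+EACA, against 1661 and 5963. Filtering at FPKM 5 gave 1115 higher and 3344 lower with PLG+EACA+RNase, 3546 lower with PLG+EACA and 835 higher between the treatments, from fewer genes. Without a filter, 3306 rose with PLG+EACA+RNase and 636 fell between the treatments. With only the 2 groups, 425 rose and 310 fell between the treatments, against 1349 and 975; over left-out libraries these ran from 569 to 1922 and from 423 to 1306. Deviations of same-numbered libraries correlated at -0.176 to 0.332, above 0.1 for some numbers (between the treatments, 0.185 for number 2 and 0.332 for number 4) but not for every one. A library correlated best with its own number in 8 of 24 cases, so the numbers were not taken as pairs, and the block moved no count of calls over all genes by more than 1.5 times. With the replicate number as a block, Keap1 (adjusted p = 0.0375) and Nfe2l2 (adjusted p = 0.0363) with PLG+EACA+RNase, and Nqo1 with PLG+EACA (adjusted p = 0.0347), passed against untreated cells (limma). For the ratios an exact sign-flip test of the 4 pairs cannot go below p = 0.125, so none can pass with the replicate block; the log2 differences it leaves as they were are, for PLG+EACA+RNase and then PLG+EACA against untreated cells, -0.48 and -0.68 for Nfe2l2/Keap1, 0.86 and 0.66 for Srxn1/Prdx1, 0.68 and 0.48 for Txnrd1/Txn1 and 2.22 and 1.47 for Hmox1/Hmox2, -0.49 for Gclm/Gclc with PLG+EACA+RNase, and, between the treatments, 0.20 for Txnrd1/Txn1 and 0.76 for Hmox1/Hmox2.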

Other observations

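Within the thioredoxin and peroxiredoxin list, the mitochondrial counterparts of the cytosolic genes were read after their values were seen. Txn1, cytosolic thioredoxin, rose by 0.28 on the log2 scale with PLG+EACA+RNase and by 0.47 with PLG+EACA, against untreated cells (limma adjusted p = 0.000465 and 7.64e-06). Txnrd2, the mitochondrial reductase, had 2.12 ± 0.166 FPKM with PLG+EACA+RNase and 1.92 ± 0.401 with PLG+EACA, against 3.37 ± 0.412 in untreated cells (SD, n = 4), a log2 fall of 0.56 and 0.69 (limma adjusted p = 0.00147 and 0.000298), and it stayed lower with median-of-ratios scaling, at -0.36 and -0.46. Prdx3, the mitochondrial peroxiredoxin, had 27.0 ± 2.44 FPKM with PLG+EACA+RNase and 23.8 ± 1.54 with PLG+EACA, against 26.8 ± 1.03 in untreated cells. Its log2 difference was 0.01 and -0.17 as deposited and 0.24 and 0.11 with median-of-ratios scaling, so the sign turned with the scaling for PLG+EACA (limma adjusted p = 0.0411 as deposited and 0.215 rescaled) but not for PLG+EACA+RNase, which passed as higher after rescaling (adjusted p = 0.0111).

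Nbr1, a selective autophagy receptor that like p62 binds ubiquitinated cargo, averaged 20.7 ± 3.19 FPKM with PLG+EACA+RNase, 14.4 ± 2.44 with PLG+EACA and 17.0 ± 0.604 in untreated cells, and was higher with PLG+EACA+RNase than with PLG+EACA by 0.51 on the log2 scale (limma adjusted p = 0.0183; past the threshold in 21 of 24 alternatives, with adjusted p from 0.00297 to 0.0665). It was chosen after its values were seen.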
